A study of Mus musculus with 4 samples.

Results

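The Notch receptors, their ligands and their Hes and Hey targets were followed through single-base maps of N6-methyladenosine (m6A) in day 4 mouse retinal organoids. The set was given by name as 10 genes, and 9 of them were found among the 29178 genes of the site lists. They were the receptors Notch1, Notch2 and Notch3, the ligands Dll1, Dll3 and Jag1, and the targets Hes1, Hes5 and Hey1. Hes6 was not matched to a gene name and was not analysed here. Every listed site inside one of these genes and on its strand was taken as a member, which gave 835 of 881997 positions. The sites were taken by gene, not by any measured value, but the genes were chosen with earlier results of these data known.

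Retinal organoids are aggregates of pluripotent stem cells that form eye tissue in culture, here grown for 4 days in medium with 5% KSR, a serum replacement, and 0.1 µM AGN. The wild-type libraries (n = 2) came from Rx:GFP, a line with a green fluorescent reporter of the eye field gene Rax. The knockout libraries (n = 2) came from the Mettl3 KO Rx:GFP line, which by the growth protocol also harbors a doxycycline-inducible HA-METTL3. The labels give no treatment and no doxycycline for either group, and they do not say which exon of Mettl3 was hit or how many clones the KO line held. All 4 libraries carry the same batch label. Nothing in the labels says that the libraries of a group came from separate cultures, so p-values measure only the spread between these samples.

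The enzyme that writes most m6A on mRNA has METTL3 as its catalytic subunit. In GLORI, the method used, unmodified adenosine is deaminated and read as G, while m6A is protected and still read as A. The share of A among the A and G reads at a site is called its level, and the number of those reads its coverage. To be listed, a site needed 15 or more reads, 5 or more of them unconverted, and a level of 0.1 or higher. A site that is missing from a list was either below that level or too thinly covered.

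Notch signalling passes between touching cells. A Delta or Jagged ligand on one cell binds a Notch receptor on its neighbour, the receptor is cut, and its intracellular part enters the nucleus and joins the DNA-binding protein RBPJ. The complex turns on Hes and Hey genes, whose repressor proteins hold back proneural genes. In the developing retina and brain this is known for keeping progenitors undifferentiated. The Hes5 promoter is shown because Hes5 carried the best covered of the sites at a level of 1.00 in both wild-type libraries. The 250 bases before its start, at chr4:154960673-154960922 on the plus strand of GRCm38.p6 (RefSeq), contain 2 matches to the RBPJ core GTGGGAA, in capitals, one of them as its reverse complement TTCCCAC.
Hes5 promoter: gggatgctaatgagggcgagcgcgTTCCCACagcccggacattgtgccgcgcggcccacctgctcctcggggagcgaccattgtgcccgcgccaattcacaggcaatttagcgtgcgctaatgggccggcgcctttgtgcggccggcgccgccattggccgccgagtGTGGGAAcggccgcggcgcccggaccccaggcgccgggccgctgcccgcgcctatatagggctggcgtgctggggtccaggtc
Searched on both strands, these letters occur in 1779 of 32851 such windows (5.42%). Hes5 alone held them among the 8 named genes with such a window, Hes6 included. Hes1 and Hey1 had no window and were not searched. A match is a description of the sequence and was not tested for binding.

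Over the whole series the lists held 215850 to 288516 sites with a median coverage of 38 to 41 reads. Relative to the median gene of each library, Mettl3 itself had a coverage of 1.01 and 0.801 in the wild type against 1.16 and 1.04 in the KO (log2 change 0.29 ± 0.18, SE; limma, adjusted p = 0.348), so RNA coverage did not check the KO label. Markers of the eye field separated the genotypes. Of these markers, 3 had a value in every library, and their summed relative coverage was 22.8 and 24.5 in the wild type against 5.05 and 5.31 in the KO. By the limma test used below, Six3 and Lhx2 fell (adjusted p = 8.62e-06 each), Pax6 did not pass the test, Rax had a value in the wild type only, and Six6 had none. The summed neural progenitor markers stood at 21.6 and 23.3 against 17.9 and 16.5, with Sox2 lower (adjusted p = 0.0263). Sox2 stood at 12.1 and 12.6 against 8.00 and 6.35. Sox1, Sox3 and Nes did not pass the test, and Sox3 stood at 6.81 and 7.42 against 7.17 and 7.60. Of 5 pluripotent markers, only Pou5f1 and Nanog had a value in every library. Their sum stood at 3.09 and 3.71 against 2.33 and 1.87, with Pou5f1 lower. Of 5 markers of midbrain, hindbrain and neural crest, only Wnt1 and En1 had a value in every library, and En2, Pax3 and Sox10 did not. The sum of Wnt1 and En1 stood at 1.24 and 0.975 against 2.25 and 2.92, with Wnt1 higher (adjusted p = 2.49e-04) and En1 not passing the test. Tubb3 was the only one of 4 neuron markers valued in every library and did not pass the test, and no mesoderm, endoderm or endothelium marker had a value in every library.

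The first comparison asked how many sites the Notch genes carried with and without Mettl3. All 9 genes had listed sites in all 4 libraries. The wild-type libraries listed 190 and 252 member sites, the KO libraries 231 and 242. Both KO values lay between the wild-type values, and the means of 221 ± 43.8 and 236 ± 7.78 (SD, n = 2 each) gave a ratio of 1.07 (two-sided exact permutation p = 1.00). With 2 libraries per group the smallest p this test allows is 0.333. With sites of a level of at least 0.2 only, the ratio was 0.838. The lists differed in size, and scaling the counts to them changed the picture. Per 100000 listed sites, the wild-type libraries had 83.6 and 87.3 member sites and the KO libraries 100.3 and 112, without overlap. The ratio of these scaled counts was 1.24 (exact permutation p = 0.333).

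Most sites lay in the receptors. Notch3, the receptor with the most member positions, had 54 and 47 wild-type sites against 54 and 65 in the KO. Notch2 had 28 and 62 against 56 and 46, and Notch1 had 20 and 28 against 20 and 27. The genotypes overlapped in Notch1, Notch2 and Notch3 alike. Among the ligands, Jag1, which activates Notch from a neighbouring cell, had 28 and 47 sites against 30 and 45. Dll1, another activating ligand, had 17 and 19 against 28 and 14, and Dll3, a divergent Delta protein that does not activate Notch in trans, had 7 and 12 against 13 and 4. Again no ligand separated the genotypes. Hes1, a repressor whose expression oscillates in progenitors, was the only member with fewer sites in both KO libraries than in both wild-type ones, at 15 and 19 against 11 and 9. The read coverage of Hes1 was also lower in the KO, as given below, and its part in the fewer sites was not tested. Hes5, a repressor close to Hes1 in function, had 13 and 10 against 11 and 21. Hey1, a related repressor and Notch target, had 8 and 8 against 8 and 11.

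Sites at which most reads stayed unconverted were fewer in both KO libraries. Sites with a level of at least 0.5 numbered 36 and 47 in wild-type against 16 and 20 in KO libraries, without overlap (41.5 ± 7.78 against 18.0 ± 2.83, ratio 0.434, exact permutation p = 0.333, the smallest possible). They made up 18.9% and 18.7% of the wild-type sites and 6.93% and 8.26% of the KO sites of these genes. Over all regions of the lists the shares were 16.8% and 17.8% against 12.0% and 13.8%. The difference between the Notch genes and all regions was not tested. Among sites with 30 or more reads, 15 and 20 wild-type sites stood against 6 and 2 KO sites.

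The receptors Notch1 and Notch2 held many of these high sites. Notch2, a receptor broadly present in progenitors, had 11 and 16 sites of a level of at least 0.5, against 3 and 3 in the KO. Notch1, the main receptor of neural progenitors, had 9 and 8 against 1 and 6. Notch3 had 5 and 3 against 4 and 4, so that its groups overlapped while those of Notch1 and Notch2 did not. Hes5 had 3 and 3 in the wild type against 0 and 0 in the KO. Of the ligands, Dll1 had 3 and 6 against 1 and 2, Jag1 had 3 and 10 against 2 and 3, and Dll3 had 2 and 0 against 4 and 1. Hes1 and Hey1 had at most 1 such site in any library. The median level over all member sites was 0.274 and 0.250 in the wild type against 0.216 and 0.210 in the KO (0.262 ± 0.0172 against 0.213 ± 0.00432, exact permutation p = 0.333). Levels are those of listed sites only, so a site that lost its methylation leaves the median rather than lowering it.

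Site and gene positions below are those of the lists. The submitters' processing notes name mm10, but of 3360 listed sites that fell in GRCm38.p6 promoter windows 776 (23.1%) were an A there, so they were not mixed with GRCm38 positions. In the lists Notch1 (ENSMUSG00000026923) spans chr2:26347915-26406675, Notch2 (ENSMUSG00000027878) chr3:97920843-98057677 and Notch3 (ENSMUSG00000038146) chr17:32339794-32385826. Dll1 (ENSMUSG00000014773) spans chr17:15587616-15597134, Dll3 (ENSMUSG00000003436) chr7:27992978-28001663 and Jag1 (ENSMUSG00000027276) chr2:136923376-136958564. Hes1 (ENSMUSG00000022528) spans chr16:29883202-29886614, Hes5 (ENSMUSG00000048001) chr4:155045380-155046828 and Hey1 (ENSMUSG00000040289) chr3:8728419-8732316. Notch2, Hes1 and Hes5 lie on the plus strand and the other 6 genes on the minus strand. Notch1 contains Mir6996, and Notch2 contains Gm42819 and Gm42820, on the same strand, and sites there could belong to either transcript. Exons and untranslated regions were not assigned here. The deposited intron mark was on all sites of Dll1, Hes1 and Hey1 and on none of Dll3, Jag1 and Hes5, so within these 6 genes it did not separate sites.

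In Notch1 and Notch2 the sites gathered at the 3′ end of the gene. The last 25% of Notch2 held 92.9% and 85.5% of its wild-type sites and 89.3% and 84.8% of its KO sites. The last 25% of Notch1 held 85.0% and 82.1% against 75.0% and 74.1%. Both shares were thus high in every library, with overlapping groups in Notch2 and lower KO values without overlap in Notch1. Notch3 had 24.1% and 36.2% of its sites there against 29.6% and 46.2%, with overlapping groups. Jag1 had 78.6% and 74.5% against 63.3% and 64.4%, lower in the KO without overlap. The targets differed in direction. In Hes1 the last 25% held 33.3% and 42.1% of the wild-type sites and 63.6% and 100% of the KO sites, without overlap, from 9 to 19 sites per library. In Hes5 it held 30.8% and 20.0% against 0% and 9.52%, also without overlap, from only 4 and 2 sites against 0 and 2. Hey1 (100% and 62.5% against 12.5% and 63.6%), Dll1 (23.5% and 42.1% against 21.4% and 42.9%) and Dll3 (57.1% and 66.7% against 69.2% and 25.0%) overlapped. How often other genes separate in this share was not counted, so the separations of single genes have no background here. Over all members the last 25% held 54.2% and 63.1% against 53.2% and 59.1%, which overlapped (exact permutation p = 0.667).

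**Figure D1:**
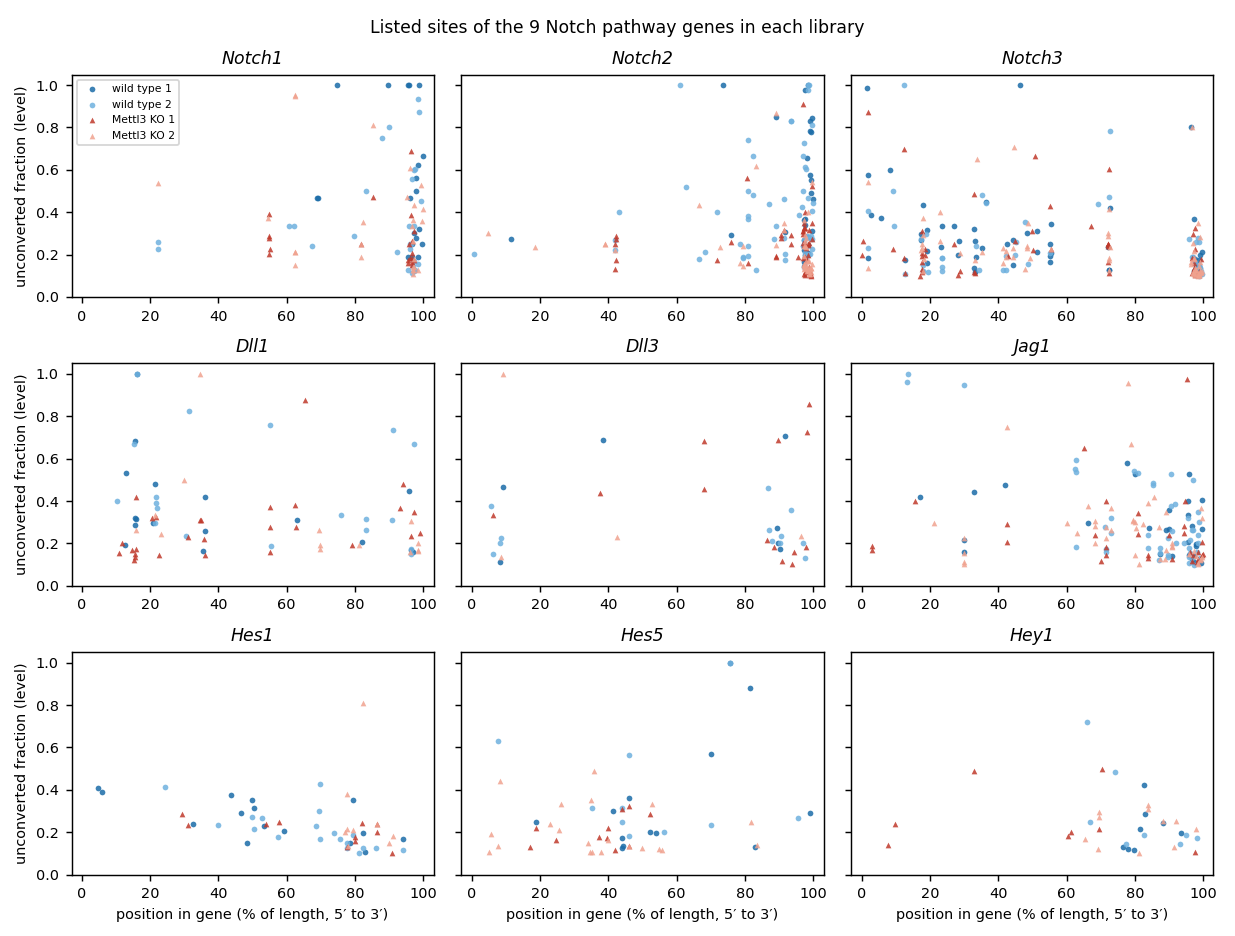
Every listed site of the 9 genes, 1 panel per gene, with its position as a percent of the gene's length from the 5′ to the 3′ end (horizontal axis) and its level (vertical axis); circles are the 2 wild-type and triangles the 2 Mettl3 KO libraries. Sites crowd at the 3′ end of Notch1, Notch2 and Jag1, and most points at a level of at least 0.5 are wild-type circles (36 and 47 against 16 and 20).

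Few positions recurred between libraries. Of the 835 positions, 763 were in 1 list, 64 in 2, 8 in 3 and 0 in all 4, so no member site could be tested for its level across the 4 libraries. The wild-type libraries shared 30 positions, which is 15.8% of one list's member sites and 11.9% of the other's. The KO libraries shared 13, which is 5.63% and 5.37%. Over all regions these shares were 12.6% and 9.94% in the wild type against 5.16% and 5.50% in the KO. A wild-type and a KO library shared between 8 and 17 member positions. Of the 30 positions shared in the wild type, 23 (76.7%) lay in the last 25% of their gene, and of the 13 shared in the KO, 10 (76.9%). Within 1000 bases of the gene's 3′ end there were 14 of the 30 and 4 of the 13.

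The next comparison asked how many of the recurrent wild-type sites were still listed without Mettl3. Of the 30, 25 had a coverage of at least 20 in both wild-type libraries, and 19 of those (76.0%, Wilson 95% interval 56.6% to 88.5%) were in neither KO list. Over all protein-coding genes with a site in each KO list 83.4% were in neither (17932 of 21514, 82.8% to 83.8%), so the Notch genes' share lay near the background. In the other direction, 9 of 11 member sites shared by the KO libraries (81.8%, 52.3% to 94.9%) were in neither wild-type list, where 6197 of 8513 sites (72.8%) were over all such genes. All these intervals cover counting error only. An expected KO coverage was computed as the wild-type coverage times the ratio of gene coverages. Requiring at least 50 expected reads in both KO libraries left 15 of 21 member sites (71.4%, 50.0% to 86.2%) in neither, and 10113 of 12488 sites (81.0%) over all such genes. Of the 19 absent sites, 13 had another listed site within 50 bases in at least 1 KO library and 9 in both. The remaining 6 had none in either, and the part of thin coverage in these absences was not tested. A level of at least 0.5 in both libraries of a genotype was found at 5 positions in the wild type against 0 in the KO. Of the 5, only 1, in Hes5, had 20 or more reads in both wild-type libraries.

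**Figure D2:**
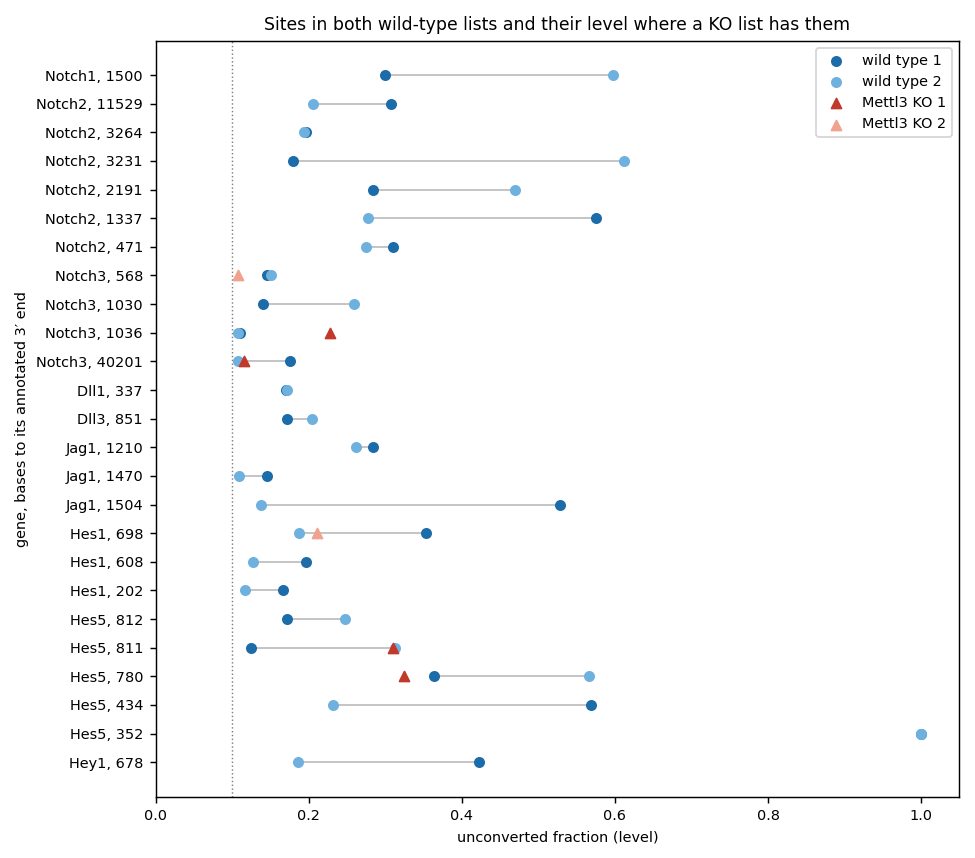
Levels (horizontal axis, fraction of reads left unconverted) at the 25 member sites that both wild-type lists hold with 20 or more reads, with KO values as triangles where a KO list holds the site. Each row gives the gene and the bases to its 3′ end, and grey lines join the wild-type values. The dotted line is the listing minimum of 0.1, and 19 of the 25 sites have no KO point.

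Hes5 carried the clearest of these sites. At chr4:155046476, 352 bases from the 3′ end of the gene, 129 of 129 and 79 of 79 wild-type reads were unconverted, a level of 1.00 in both libraries (Wilson lower bounds 0.971 and 0.954). It was listed in neither KO library, where 169.8 and 181 reads were expected. No KO site was listed within 50 bases, and the closest in KO library 2 was 89 bases away with 125 reads. In KO library 1 the closest was 340 bases away, so coverage around the site is not known there.

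The other Hes5 sites lay nearby. At chr4:155046394, 434 bases from the 3′ end, the levels were 0.569 and 0.232 from 137 and 151 reads, and neither KO library listed it at an expected 235 and 251 reads. At chr4:155046048 the levels were 0.363 and 0.566 in the wild type from 91 and 53 reads, and KO library 1 listed it at 0.325 from 212 reads. The next base, chr4:155046047, was the 1 Hes5 site shared by the KO libraries, at 0.136 and 0.135 from 221 and 156 reads, and was also in the second wild-type list at 0.183. The remaining 2 shared wild-type positions were adjacent too. At chr4:155046016, 812 bases from the 3′ end, the levels were 0.171 and 0.247, and neither KO library listed it. At chr4:155046017 they were 0.124 and 0.313, and KO library 1 listed it at 0.310 from 416 reads. Thus the sites absent from both KO lists lay on either side of sites that a KO list held. All 5 wild-type shared positions of Hes5 were within 1000 bases of the 3′ end.

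Hes1 had the deepest coverage, with lower levels. At chr16:29885916, 698 bases from the 3′ end, the levels were 0.353 and 0.187 from 609 and 631 reads, and KO library 2 listed the site at 0.211 from 76 reads. At chr16:29886006 they were 0.197 and 0.127 from 249 and 299 reads. At chr16:29886412, 202 bases from the end, they were 0.166 and 0.117 from 457 and 443 reads. Neither of the latter sites was in a KO list, at expected coverages of 109.9 and 96.4 reads and of 180.5 and 158 reads. In wild-type library 2 both lay close to the listing minimum of 0.1 (Wilson lower bounds 0.0940 and 0.0906). The KO libraries shared 2 Hes1 sites that the wild type did not list, chr16:29885849 at 0.128 and 0.216 and chr16:29886151 at 0.240 and 0.237. For Hey1 the single shared site was chr3:8729097, 678 bases from the 3′ end, at 0.423 and 0.186 from 52 and 70 reads in the wild type and in neither KO list.

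**Figure D3:**
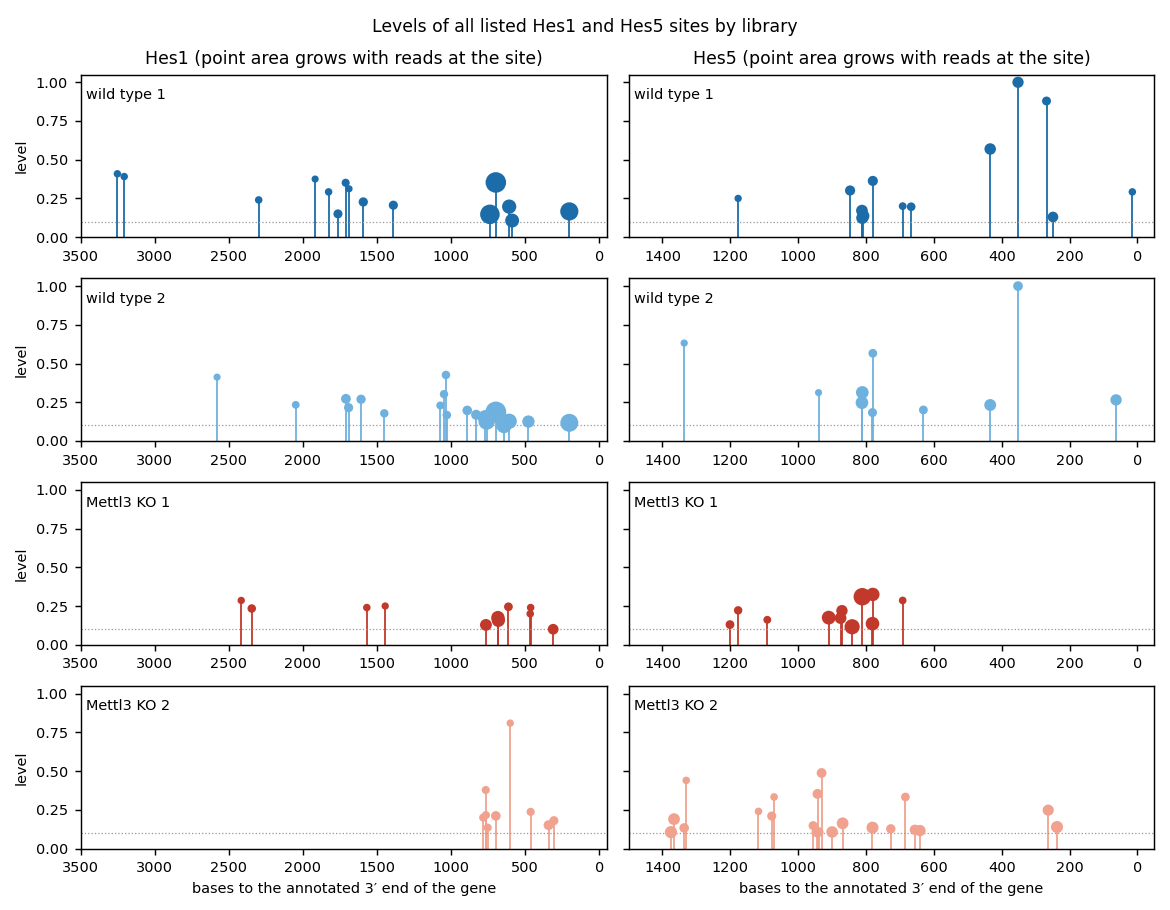
Listed sites along the Hes1 and Hes5 genes in each library, with the distance to the annotated 3′ end in bases on the horizontal axis and the level on the vertical axis. Point area grows with the number of reads, and the dotted line is the listing minimum of 0.1. In Hes5 the site with a level of 1.00 stands in both wild-type panels, 352 bases from the 3′ end, and in neither KO panel.

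Notch2 had the most shared wild-type sites, 7, of which 6 were covered by at least 20 reads in both libraries and all 6 of those were in neither KO list. Among these 6, the highest mean level was at chr3:98056340, 1337 bases from the 3′ end, with 0.575 and 0.277 from 40 and 47 reads. At chr3:98054446 the levels were 0.179 and 0.612 from 56 and 85 reads, and at chr3:98055486 they were 0.284 and 0.469 from 67 and 49 reads. The libraries gave unlike levels, the higher one in library 1 at the first site and in library 2 at the other two. Each had a listed site within 50 bases in both KO libraries, for instance one of 0.119 from 84 reads, 3 bases from the first. The KO libraries shared 4 Notch2 sites: chr3:98053882 at 0.156 and 0.147, chr3:98056347 at 0.122 and 0.132, chr3:98046069 at 0.316 and 0.318 and chr3:98055581 at 0.197 and 0.400. The first was also in the second wild-type list, at 0.144 from 195 reads.

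Notch1 had 1 shared wild-type site with at least 20 reads in both libraries, chr2:26349415, 1500 bases from the 3′ end. Its levels were 0.300 and 0.598 from 110 and 122 reads. It was in neither KO list, with 121 and 127 reads expected. Also shared in the wild type were chr2:26348733, at 1.00 and 0.875 from 18 and 32 reads, and chr2:26348931, at 0.622 and 0.933 from 37 and 15. Neither of these thinner sites was in a KO list, and no Notch1 site was shared by the KO libraries. In Notch3, 3 of the 4 shared wild-type sites were also in a KO list. The exception was chr17:32340824, with the highest mean level of the 4, at 0.140 and 0.259 in the wild type. At chr17:32340362 the wild-type levels were 0.145 and 0.151, and KO library 2 gave 0.108 from 120 reads. At chr17:32379995 they were 0.175 and 0.108, and KO library 1 gave 0.115 from 87 reads. The remaining site, chr17:32340830, had 0.110 and 0.108 in the wild type and the higher level of 0.228 in KO library 1, from 145 reads. The KO libraries shared 4 Notch3 sites, none of them in a wild-type list. They were chr17:32340877 at 0.106 and 0.105, chr17:32341076 at 0.161 and 0.107, chr17:32341161 at 0.296 and 0.120, and chr17:32372571 at 0.121 and 0.207.

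The ligands had fewer shared sites. In Jag1, chr2:136924880 had levels of 0.528 and 0.138 from 53 and 87 reads, chr2:136924586 had 0.284 and 0.262 from 88 and 183 reads, and chr2:136924846 had 0.145 and 0.109 from 69 and 110 reads. All 3 were absent from both KO lists, where 78.0 to 157 reads were expected. None had a listed site within 50 bases in both KO libraries, so coverage around them is not known in full. The third lay close to the listing minimum of 0.1 in the wild type. Dll1 had 1 site with at least 20 reads, chr17:15587953, at 0.170 and 0.172 from 141 and 99 reads. It was in neither KO list, but the KO libraries shared a site 7 bases away, chr17:15587946, at 0.233 and 0.308 from 73 and 39 reads. Another Dll1 site shared in the KO was chr17:15595614, at 0.417 and 0.261 from 24 and 46 reads. In Dll3, chr7:27993829 had 0.172 and 0.204 from 29 and 49 reads in the wild type and was in neither KO list.

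Besides the Hes5 site, 2 positions had a level of 1.00 in both wild-type libraries, each with fewer than 20 reads in one of them. These were picked after their values were seen. One was chr3:98055467 in Notch2, from 19 and 26 reads, and the other chr17:15595580 in Dll1, from 15 and 40 reads. Neither was in a KO list, and the closest KO sites were 6 and 31 bases away in Notch2 and 34 bases away in both KO libraries in Dll1.

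Gene coverage was compared next, because it measures RNA and sets which sites can be listed. It is the authors' mean read coverage of a gene, divided here by that of the median gene in the library. In bulk samples fewer cells of a type and less RNA per cell cannot be told apart. Hes1 fell and Hes5 rose in the KO, and the other 7 genes did not pass the test. Hes1 stood at 4.27 and 3.66 in the wild type against 1.59 and 1.61 in the KO, both KO libraries well below. The fold was 0.406 (log2 change -1.30 ± 0.17, SE; limma, adjusted p = 0.00203). Hes5 stood at 2.33 and 1.42 against 3.04 and 3.73, both KO libraries above. Its fold was 1.85 (log2 change 0.89 ± 0.23, SE; limma, adjusted p = 0.0461).

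Thus 2 of 9 members were called, where 5.77% of 8297 genes were called in either direction (2.66% higher, 3.11% lower). The Hes1 call was lost without KO library 2 (log2 change -1.31, limma adjusted p = 0.0523). The Hes5 call rested on every library but the first wild-type one: the limma adjusted p was 0.346 without wild-type library 2 (log2 change 0.53), 0.124 without KO library 1 (1.04) and 0.266 without KO library 2 (0.74). The call was also lost after quantile normalization (log2 change 0.98, adjusted p = 0.0589) and with the most frequent value per gene (0.89, adjusted p = 0.0680). The summed coverage of the valued eye field markers was lower, and that of Wnt1 and En1 higher, in the same KO libraries. Their part in the Hes1 and Hes5 changes was not tested.

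**Figure D4:**
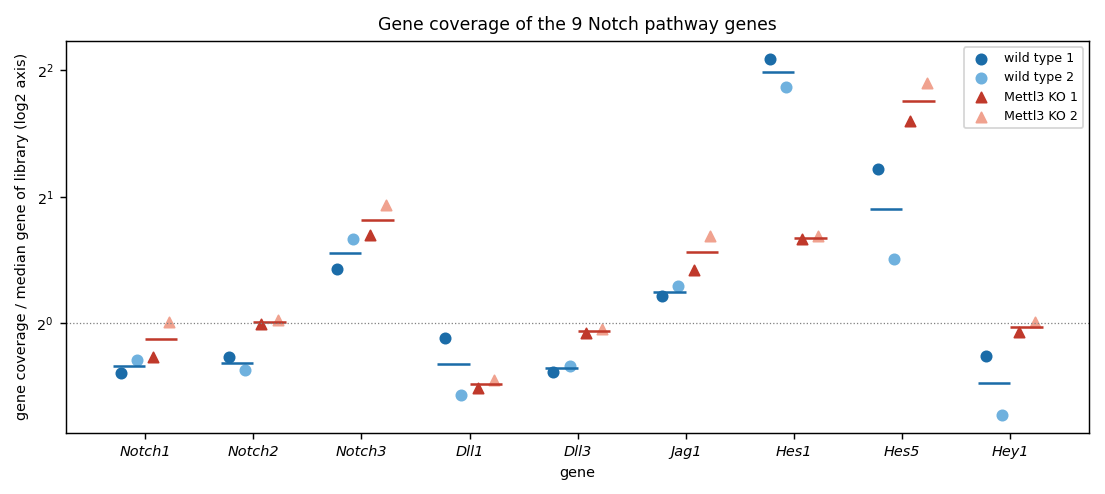
Gene coverage of the 9 members relative to the library's median gene (vertical axis, log2-spaced) in the 2 wild-type and 2 KO libraries, with short lines at the group means and a dotted line at the median gene. Hes1 is lower in both KO libraries (1.59 and 1.61 against 4.27 and 3.66) and Hes5 higher (3.04 and 3.73 against 2.33 and 1.42).

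The receptors were all slightly higher in the KO without passing the test. Notch1 stood at 0.763 and 0.817 in the wild type against 0.833 and 1.01 in the KO, a log2 change of 0.21 ± 0.17 (SE; limma, adjusted p = 0.499). Notch2 stood at 0.832 and 0.775 against 0.997 and 1.02, a change of 0.33 ± 0.16 (adjusted p = 0.255). Notch3, the receptor with the most coverage, stood at 1.35 and 1.59 against 1.62 and 1.91, a change of 0.26 ± 0.18 (adjusted p = 0.398). In each of them the KO values were both above the wild-type ones, narrowly so in Notch1 and Notch3.

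Among the ligands, Jag1 stood at 1.16 and 1.23 in the wild type against 1.34 and 1.61 in the KO, a log2 change of 0.30 ± 0.17 (SE; limma, adjusted p = 0.318). Dll3 stood at 0.768 and 0.793 against 0.950 and 0.967, a change of 0.30 ± 0.16 (adjusted p = 0.300). Dll1 stood at 0.924 and 0.676 against 0.702 and 0.732, a change of -0.14 ± 0.19 (adjusted p = 0.701), and was the only member whose groups overlapped. Hey1, the remaining target, stood at 0.836 and 0.606 against 0.956 and 1.01, a change of 0.46 ± 0.19 (adjusted p = 0.167). In all, 7 members lay higher in both KO libraries and 1 lower, where 24.7% of all genes lay higher and 29.4% lower. The median log2 change was 0.30 over the members and -0.02 over all genes. Without centring on the median gene, these medians were 0.18 and -0.13.

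In order of mean wild-type coverage, Hes1 came first and Hes5 second, though the second wild-type value of Hes5 (1.42) lay within the range of Notch3 (1.35 and 1.59). Jag1 followed, and Notch1, Notch2, Dll1, Dll3 and Hey1 lay together between 0.606 and 0.924 and could not be ordered beyond their spread. In the KO, Hes5 was above every other member in both libraries, and Hes1, at 1.59 and 1.61, lay beside Notch3 and Jag1. No gene value below 15 reads occurred in any library, so changes of weakly covered genes can be understated.

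The lists also give each gene a conversion rate, the share of its adenosines read as G over all its covered positions. The remainder, the unconverted share, sums over methylated sites and incomplete chemistry, and does not depend on which sites were listed. It was compared after the data had been seen. Hes1 had the largest difference among the members: its unconverted share was 6.09% and 5.82% in the wild type against 2.34% and 2.44% in the KO (5.96% ± 0.186 against 2.39% ± 0.0707, SD, n = 2 each). Notch2 had 6.16% and 5.59% against 2.71% and 2.84%. The median gene had 3.89% and 3.82% against 2.83% and 3.37%. Hes1 and Notch2 thus lay above the median gene in both wild-type libraries and below it in both KO libraries.

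**Figure D5:**
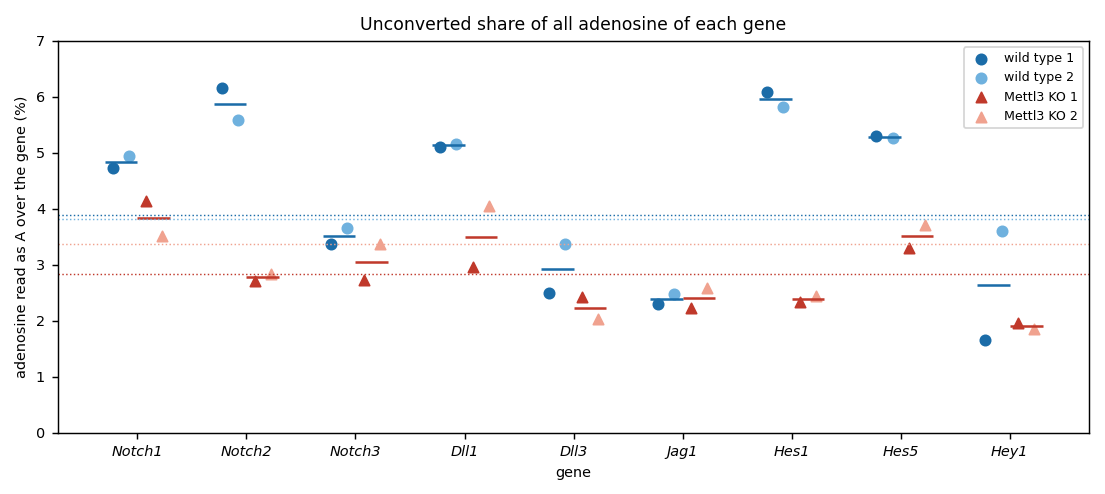
Unconverted share of adenosines per member gene (vertical axis, percent) in the 2 wild-type and 2 KO libraries, with short lines at the group means and dotted lines at each library's median gene. Hes1 (6.09% and 5.82% against 2.34% and 2.44%) and Notch2 (6.16% and 5.59% against 2.71% and 2.84%) are the farthest apart between genotypes.

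The log2 odds of conversion, relative to the median gene, changed by 1.04 ± 0.13 in Hes1 (SE; limma, adjusted p = 0.0819) and by 0.79 ± 0.21 in Notch2 (adjusted p = 0.190). No member passed the threshold, and 2 of 8297 genes (0.0241%) did. Before adjustment, 2 of 9 members and 1332 of 8297 genes (16.1%) had a limma p under 0.05. Without centring, Hes1 changed by 1.37 and passed (limma adjusted p = 0.0281), as did 107 genes, 105 of them with higher conversion in the KO. These include the shift of the median gene itself.

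For the other members the differences were smaller. Hes5 had an unconverted share of 5.30% and 5.26% in the wild type against 3.30% and 3.71% in the KO, and Dll1 had 5.10% and 5.16% against 2.96% and 4.05%. Notch1 had 4.72% and 4.94% against 4.14% and 3.52%, and Dll3 had 2.50% and 3.36% against 2.43% and 2.02%. In these 4 genes, as in Hes1 and Notch2, both KO values were the lower ones. Notch3 (3.37% and 3.65% against 2.72% and 3.37%), Jag1 (2.30% and 2.48% against 2.22% and 2.58%) and Hey1 (1.66% and 3.60% against 1.96% and 1.85%) did not separate in that way. The 6 of 9 members that separated compare with 50.0% of all genes, and 0 members against 3.71% of all genes separated upwards. The median difference was -1.0 percentage points over the members and -0.633 over all genes.

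Other genes of the pathway were taken from a list of 50 that was drawn up from textbook knowledge, with earlier results of these data known. Of these, 36 had a gene value in every library. Jag2, a further ligand, rose, at 0.578 and 0.503 in the wild type against 0.849 and 1.13 in the KO (log2 change 0.86 ± 0.19, SE; limma, adjusted p = 0.0243). None of the 36 fell, and their median log2 change was -0.04. Over all genes 2.66% were called higher and 3.11% lower. The unconverted share was lower in both KO libraries for 22 of the 36, and for 50.0% of all genes. Lfng, which glycosylates Notch receptors, stood at 2.57 and 2.82 against 3.59 and 3.12 (adjusted p = 0.291), and Nrarp, a feedback inhibitor that Notch induces, at 1.28 and 1.61 against 1.52 and 1.76 (adjusted p = 0.575); these 2 were picked after their values were seen. Of 12 proneural and related genes, 4 had a value in every library and 1 fell: Id2, an inhibitor of proneural factors, stood at 1.96 and 1.74 against 0.992 and 0.828 (log2 change -1.03 ± 0.17, SE; limma, adjusted p = 0.00872). Neurog2, a proneural factor, stood at 0.746 and 0.670 against 0.804 and 0.733 and did not pass the test.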

How the data were processed

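Per the file headers, the authors deposited 1 site list per library (2 wild type, 2 Mettl3 KO, day 4), with counts of A or G reads and of A reads per site, the fraction unconverted, the authors' p-value, and the coverage signal and conversion fraction of each gene. Aligner and caller are not given in the sources used here, and reads may be PCR copies, so intervals cover counting error only. From these files, 28 to 53 repeated entries per list were collapsed. Gene values shared along a chromosome (18.4% to 24.3% of sites) were left out, as were genes with several values.

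The authors' gene coverage was tested as log2 with limma 3.58.1 in R 4.3.3 over 8297 genes, each library centred on its median gene, with no pseudocount and Benjamini-Hochberg adjusted p under 0.05 as the threshold. Conversion was tested as log2 odds with a prior trend on coverage. Both were tested on simulated data, where neither recovered every gene given a change, and the conversion test recovered fewer. A gene that did not pass was therefore not shown to be unchanged. Per-library values were compared by two-sided exact permutation tests. The tests planned for sites in all 4 lists held no member site and were not run. Every member was named, with all sites shared in the KO and up to 3 shared wild-type sites per gene, by mean level, at a coverage of at least 20. Further shared wild-type sites outside this rule were named in Notch1, Notch2, Notch3, Dll1 and Hes5. Members and gene lists were chosen with earlier results of these data known. Alternatives were other minima, placements, scalings, a replicate block and leaving out each library.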

Additional observations from a re-analysis of the deposited data

How the results depend on the processing

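The ratio of listed sites was 0.838 at a level of at least 0.2 and 1.24 per 100000 listed sites. It was 0.938 to 1.24 when each library was left out. The share of shared wild-type sites absent from the KO lists was 84.0% to 92.0% when 1 KO library was considered. The KO minus wild-type difference in the share of sites in the last 25% of the gene, -2.48 percentage points, was 0.256 for sites in both lists of a genotype and -6.93 to 1.96 without each library. Of the members, 1 was called for coverage after quantile normalization and 1 with the most frequent value per gene, and 0 to 2 without each library. Dll1 coverage changed by -0.37 to 0.08 without each library. For conversion, Notch3 changed by 0.22 without centring. Without each library Notch1 ranged from -0.23 to 0.27, Dll3 from -0.20 to 0.33 and Hey1 from -0.54 to 0.63. The causes were not tested.

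Of all genes, 479 were called for coverage (221 higher, 258 lower), but 792 with a filter at the lower quartile, 225 without wild-type library 2, 57 without KO library 1 and 18 without KO library 2. The split was 101 higher and 300 lower without centring. For conversion the 2 calls became 107 without centring and 0 without a trend on coverage or without any 1 library. Same-numbered libraries did not deviate together (r = -0.0275 for coverage, 0.00351 for conversion), so the numbers do not pair them. A replicate block gave 542 calls for coverage, 2 of them members, and 38 for conversion, with Hes1 the 1 member (limma adjusted p = 0.0368). The ratio of sites of a level of at least 0.5 kept its direction in all alternatives, at 0.229 to 0.505. The planned tests of sites in all 4 lists had no member site at a coverage of 15, 20 or 50 and were not run. Sites under a level of 0.1 or 15 reads are not seen in any list.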
